A study of Mus musculus with 6 samples.

Results

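The genes described here encode the Wnt ligands, their receptors and secreted antagonists, the proteins next to those receptors inside the cell, and the ROR2 branch of the pathway. They were chosen by gene symbol, with earlier results of these data known, from the count tables of 393P_ZEB1 and 393P_vector cells. Both were made from an epithelial mouse lung adenocarcinoma (LUAD) line that the labels call KP lung cancer cells. The rule took every numbered Wnt and Fzd gene, Sfrp1 to Sfrp5, Dkk1 to Dkk4, Dvl1 to Dvl3 and 21 further named genes, and found 61 genes among 24214 features. They comprised 19 ligands, 10 frizzled receptors, 2 LRP co-receptors, 4 receptors of the tyrosine kinase type, 9 secreted antagonists, 3 Dishevelled genes, 5 planar polarity genes, 8 genes of the β-catenin arm and Porcn.

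The comparison was between 2 groups of cell transfectants, both of C57BL/6 strain background and both grown in RPMI-1640 with FCS. The ZEB1 samples (n = 3, 393P_ZEB1) carried a vector for ectopic expression of ZEB1, a zinc finger repressor that drives epithelial-to-mesenchymal transition (EMT), and the vector samples (n = 3, 393P_vector) carried the empty vector. Transfectants were drug-selected according to the methods of the study, and the labels do not say whether the 3 samples of a group came from separate transfections or cultures, so p-values measure the spread between these samples, which may be technical. Total RNA was sequenced on the SOLiD platform.

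Wnt proteins are secreted, lipid-modified ligands, and the acyltransferase Porcn adds the lipid that they need in order to leave the cell and bind their receptors. When a Wnt binds a frizzled receptor together with LRP5 or LRP6, Dishevelled is recruited, the Axin-based destruction complex is inhibited and β-catenin accumulates and acts with TCF/LEF factors on target genes. Other Wnts, of which WNT5A is the best known, also bind ROR1, ROR2, RYK or PTK7 and act through planar cell polarity and calcium signaling without stabilizing β-catenin, and ROR2 is widely studied in cell migration. In the developing lung, Wnt7b is an epithelial ligand.

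Total counts were between 54442450 and 79158012 per sample, and levels are given as CPM, reads of a gene per 1000000 reads of the sample after TMM normalization. A level below 3 counts, 0.0379 to 0.0551 CPM depending on the sample and before TMM scaling, was not read as a signal. Zeb1 was at 21.2 to 22.0 CPM in 393P_vector and at 48.9 to 54.9 CPM in 393P_ZEB1. All 5 mesenchymal marker genes were higher in 393P_ZEB1 and 6 of 7 epithelial ones were lower, with Krt19 not called. Of the 5 markers of lung epithelium, Nkx2-1, Sftpb, Sftpc and Scgb1a1 had at most 5 counts (0.0602 CPM) in any sample, near or below that level, while Foxj1, a factor of ciliated cells, was at 2.79 ± 0.165 CPM (SD, n = 3) in 393P_vector and 0.186 ± 0.0877 CPM (n = 3) in 393P_ZEB1 (log2 fold change -3.89, adjusted p = 7.35e-05). Vector replicate 3 stood apart from its group. Between 7.8% and 8.6% of genes differed at least 2-fold between it and the other vector samples, against 1.59% between those other samples, so values of members that it decided are also given without it. Summed counts of 4 Y-linked genes were 5861 to 10713 in the vector samples and 30 to 38 in the ZEB1 samples, a difference between the transfectants other than the labelled one, and its part in the results below was not tested.

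In 393P_ZEB1 cells the Wnt genes changed in both directions, and the leading ligand transcript and the leading ROR transcript differed between the groups. In bulk samples, fewer cells of a kind and less RNA per cell cannot be told apart. Ror2, Fzd3 and Wnt5a had the largest fold increases among members above 1 CPM, and Wnt7a, Nkd2, Wnt11 and Wnt7b the largest decreases. Enough reads for a test were present for 41 of the 61 genes, and the other 20 had at most 14 counts and 0.247 CPM in any sample. Of the 41, 10 were higher and 17 lower in 393P_ZEB1 at an adjusted p below 0.05 (edgeR quasi-likelihood test, Benjamini-Hochberg adjustment over 13892 genes). This was 65.9% of the tested members, where 37.6% of all tested genes were called. Because the set was chosen with earlier results known, this share and those below describe it and are not a test. Higher calls made up 24.4% of the members against 18.3% of all genes, and lower calls 41.5% against 19.3%. The median log2 fold change was -0.33 over the tested members and -0.02 over all tested genes. A call with at least a 4-fold difference was reached by 14 members, 4 higher and 10 lower, or 34.1% against 8.01% of all genes. Among these 14, Ror2, Sfrp4, Nkd2 and Wnt10b had fewer than 10 counts in at least 1 sample of the group where they were lower. In 33 members the 3 values of one group all lay above the 3 of the other, 80.5% of those tested against 52.8% of all genes, and an exact permutation test of such a gene gives 0.1, the smallest two-sided p that 3 samples against 3 allow.

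**Figure D1:**
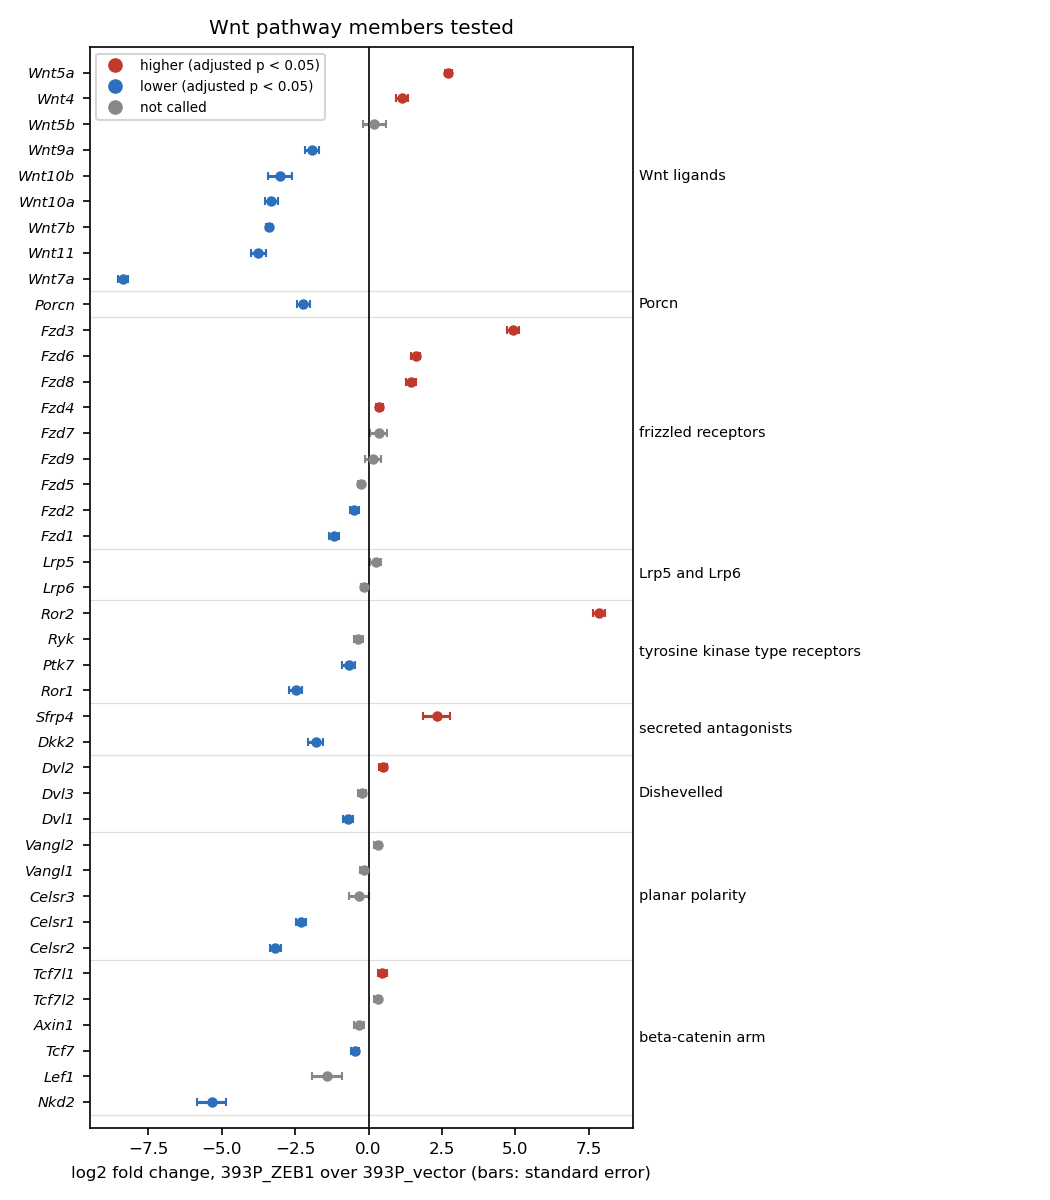
Log2 fold change (horizontal axis, 393P_ZEB1 over 393P_vector) of the 41 tested Wnt pathway genes, grouped by role. Points are edgeR estimates, bars are standard errors, and color marks genes with adjusted p below 0.05. Ror2 lies farthest to the right at 7.85 and Wnt7a farthest to the left at -8.36.

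The call held in all 6 fits that left out 1 sample for 20 of the 27 called members, and the same 20 also passed a test against a 1.5-fold difference. Their smallest absolute log2 fold change was 1.14. The other 7, Dvl1, Dvl2, Fzd2, Fzd4, Ptk7, Tcf7 and Tcf7l1, lost the call in at least 1 such fit.

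Ror2, the ROR family receptor tyrosine kinase that binds WNT5A, had the highest log2 fold change of all 13892 tested genes. Its level was 0.194, 0.136 and 0.144 CPM in vector replicates 1 to 3 and 33.1, 40.8 and 35.7 CPM in ZEB1 replicates 1 to 3. The vector values were low, though above the level of 3 counts, and the groups were far apart. With 11, 8 and 12 counts in the vector samples, its place among the tested genes rested on its reads in 393P_ZEB1. The difference was 230.1-fold, a log2 fold change of 7.85 (SE 0.20, adjusted p = 3.71e-07), and it stayed between 7.77 and 8 when any 1 sample was left out. The gene occupies chr13:53109317-53286109 on the minus strand (GRCm38) with 9 exons. The authors' tables list how many exons of a gene held more than 10 reads, and for Ror2 this was 0 in each vector sample and 7, 8 and 8 in the ZEB1 samples. Reads in 393P_ZEB1 therefore came from along the gene and not from a single exon.

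Ror1, the paralog of Ror2, moved the other way. It lies at chr4:100095791-100442545 on the plus strand and was at 7.6, 8.18 and 10.2 CPM in the vector samples and at 1.18, 1.71 and 1.77 CPM in the ZEB1 samples. All vector values exceeded all ZEB1 values, a 5.56-fold decrease (log2 fold change -2.48, SE 0.22, adjusted p = 9.36e-05). Exons with more than 10 reads numbered 7, 6 and 7 in the vector samples and 1, 2 and 2 in the ZEB1 samples. On a scale per kilobase of exon (RPKM with TMM library sizes, used wherever levels of different genes are compared), Ror2 made up 1.65% ± 0.516 (SD, n = 3) of the summed Ror1 and Ror2 level in 393P_vector and 95.5% ± 0.712 (n = 3) in 393P_ZEB1. The sum itself was 2.49 ± 0.38 RPKM in 393P_vector and 9.66 ± 1.06 RPKM in 393P_ZEB1.

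The other receptors of this type were more abundant than either ROR gene and changed less. Ptk7, a pseudokinase of planar polarity signaling, was at 208, 226 and 122 CPM in the vector samples and 104, 125 and 117 CPM in the ZEB1 samples. Vector replicate 3 lay within the ZEB1 range, so the groups overlapped. The log2 fold change was -0.68 (SE 0.22, adjusted p = 0.0457). Without vector replicate 3 it was -0.91 with adjusted p = 1.54e-05, and without any other sample the call was lost, with adjusted p up to 0.161. Ryk, a receptor with an inactive kinase domain and a WIF domain for Wnt binding, was at 116 ± 21.9 CPM (SD, n = 3) in 393P_vector and 91.6 ± 5.65 CPM (n = 3) in 393P_ZEB1 and did not pass the test (log2 fold change -0.35, SE 0.15, adjusted p = 0.102, and -0.19 with 0.0939 without vector replicate 3). Per kilobase, Ptk7 at 43.7 ± 13.2 RPKM and Ryk at 35.8 ± 6.74 RPKM did not differ beyond their spread in 393P_vector, and at 27.3 ± 2.49 and 28.2 ± 1.74 RPKM they did not in 393P_ZEB1. Ror2 remained below both, at 9.22 ± 0.994 RPKM in 393P_ZEB1.

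**Figure D2:**
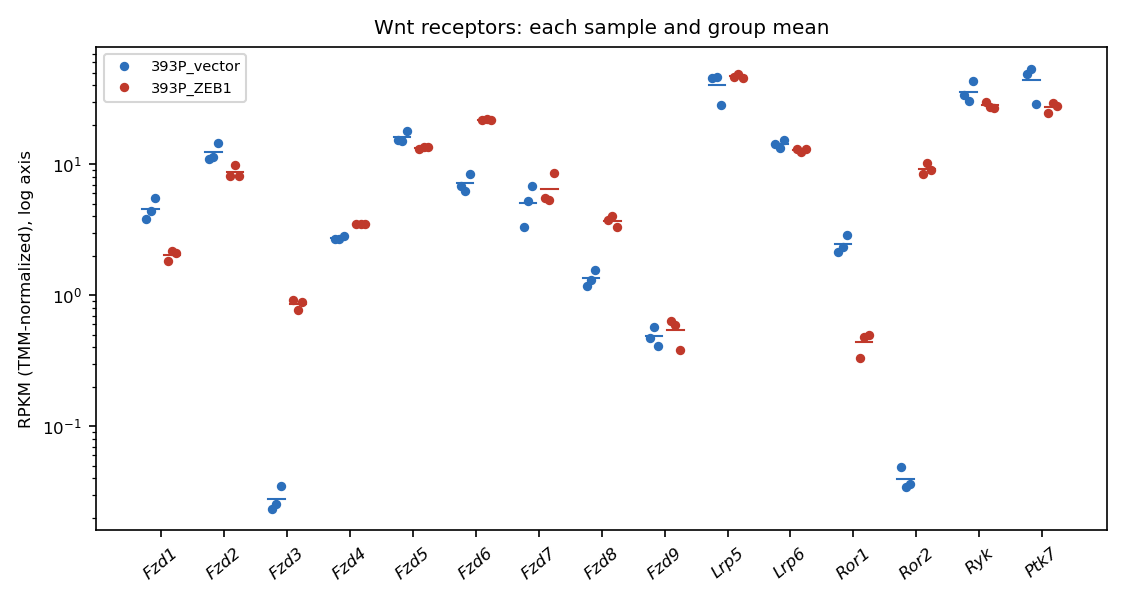
Level per kilobase (vertical log axis, TMM-normalized RPKM) of the tested frizzled, LRP and tyrosine kinase type receptors in each sample. Points are the 3 samples of a group and short lines are group means. Ror2 and Fzd3 sit far apart between the groups, Ror1 moves the opposite way to Ror2, and Lrp5, Lrp6 and Ryk overlap or lie close.

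The sequence just before the start of both ROR genes is shown because ZEB1 binds DNA at CACCT boxes and these paralogs changed in opposite directions. Each run holds the 250 bases before the start of the RefSeq transcript, read 5′ to 3′ on the strand of the gene from the RefSeq promoter table (GRCm38.p6), and capitals mark every CACCT or its reverse complement AGGTG. The Ror2 window is chr13:53286125-53286374, minus strand, and the Ror1 window is chr4:100095541-100095790, plus strand.
Ror2: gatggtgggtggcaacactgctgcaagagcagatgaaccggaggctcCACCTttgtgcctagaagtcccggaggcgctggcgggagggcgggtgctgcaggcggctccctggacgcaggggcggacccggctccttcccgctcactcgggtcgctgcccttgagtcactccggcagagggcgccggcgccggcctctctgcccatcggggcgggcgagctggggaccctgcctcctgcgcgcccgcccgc
Ror1: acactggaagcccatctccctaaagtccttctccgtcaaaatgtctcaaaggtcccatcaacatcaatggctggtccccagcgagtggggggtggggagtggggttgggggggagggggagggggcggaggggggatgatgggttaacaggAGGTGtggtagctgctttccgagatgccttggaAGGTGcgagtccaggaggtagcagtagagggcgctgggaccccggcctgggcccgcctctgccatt
The Ror2 window held 1 such box, 203 bases before the start, and the Ror1 window held 2, which began 99 and 66 bases before it. The window of Wnt7a, the member with the largest decrease, held 0. The RefSeq start of Ror2 lay upstream of the end of the gene in the authors' tables. RefSeq windows were matched for 43 of the 61 genes (51 windows). At least 1 CACCT or AGGTG was found on either strand in 25 of the 51 windows, 49%, and in 46% of all 32851 windows of this length in the table. The longer form CACCTG or CAGGTG, each of which contains the shorter one, was found in 14 of the 51, 27.5%, and in 17.2% of all windows. Neither the Ror1 nor the Ror2 window held the longer form. Among genes with a window, the longer form was present in 1 of 5 that were higher in 393P_ZEB1 (Wnt4) and in 3 of 12 that were lower (Celsr2, Dvl1 and Wnt10b), and the shorter one in 3 of 5 that were higher and 5 of 12 that were lower. The counts describe letters in these windows and not binding.

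Of the 19 ligands, 9 had enough reads for a test, of which 2 were higher and 6 lower in 393P_ZEB1. Over all tested genes 18.3% were higher and 19.3% lower. The median log2 fold change of the tested ligands was -3.03. Wnt7b, the most abundant ligand of 393P_vector, was at 344, 337 and 318 CPM in the vector samples and 30.9, 32.7 and 31.3 CPM in the ZEB1 samples. The values were tight within each group and 10.5-fold apart (log2 fold change -3.40, SE 0.10, adjusted p = 6.02e-07). The gene lies at chr15:85535437-85581821 on the minus strand. Its annotated exons overlap those of the antisense gene AU022754, which was far lower, at a mean of 1.43 CPM in 393P_vector and 0.454 CPM in 393P_ZEB1, and whether the counting used strand is not given in the sources used here. Antisense exons are also annotated over Wnt5a, Wnt11, Fzd5, Fzd6, Sfrp2, Dvl1, Dvl2, Tcf7l1, Lef1, Vangl1 and Axin2, and without strand the reads of such pairs cannot be told apart.

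Wnt7a, its closest paralog, fell further. Its values were 130.5, 129.9 and 106 CPM in the vector samples and 0.336, 0.378 and 0.393 CPM in the ZEB1 samples. The level in 393P_ZEB1 was low, though above 3 counts in each sample. The difference was 328-fold (log2 fold change -8.36, SE 0.17, adjusted p = 2.64e-07), the eighth lowest log2 fold change of all tested genes. Wnt7a lies at chr6:91363983-91411369 on the minus strand, on a different chromosome from Wnt7b. The pair summed to 114 ± 7.41 RPKM in 393P_vector and 7.29 ± 0.216 RPKM in 393P_ZEB1.

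Wnt5a, the ligand classically paired with ROR2, changed the other way. It was at 7.31, 6.61 and 6.91 CPM in the vector samples and 48.3, 43.8 and 44.6 CPM in the ZEB1 samples, with no overlap. This was a 6.56-fold increase (log2 fold change 2.71, SE 0.12, adjusted p = 2.45e-06), at chr14:28505473-28525515 on the plus strand. Its paralog Wnt5b was low in all samples, at 0.707, 0.646 and 0.385 CPM in 393P_vector and 0.355, 0.72 and 0.884 CPM in 393P_ZEB1. Those values overlapped and did not pass the test (log2 fold change 0.20, SE 0.39, adjusted p = 0.727), and the sign turned to -0.04 without vector replicate 3 and to -0.08 without ZEB1 replicate 3.

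Summed over all 19 ligands, the level per kilobase was 128, 127 and 115 RPKM in the vector samples and 20.4, 20 and 20 RPKM in the ZEB1 samples, a ratio of 6.13. Wnt7b and Wnt7a held 61.3% ± 1.44 and 31.1% ± 1.69 (SD, n = 3) of the sum in 393P_vector, while Wnt5a held 1.29% ± 0.0953. In 393P_ZEB1, Wnt5a held 51.8% ± 2.05 (n = 3), Wnt7b 35.7% ± 1.4 and Wnt7a 0.579% ± 0.0528. Wnt7b was thus the leading ligand transcript of 393P_vector and Wnt5a that of 393P_ZEB1. On this relative scale Wnt5a in 393P_ZEB1, at 10.4 ± 0.546 RPKM, was still below both Wnt7b and Wnt7a in 393P_vector, at 75.6 ± 3.09 and 38.5 ± 4.37 RPKM.

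**Figure D3:**
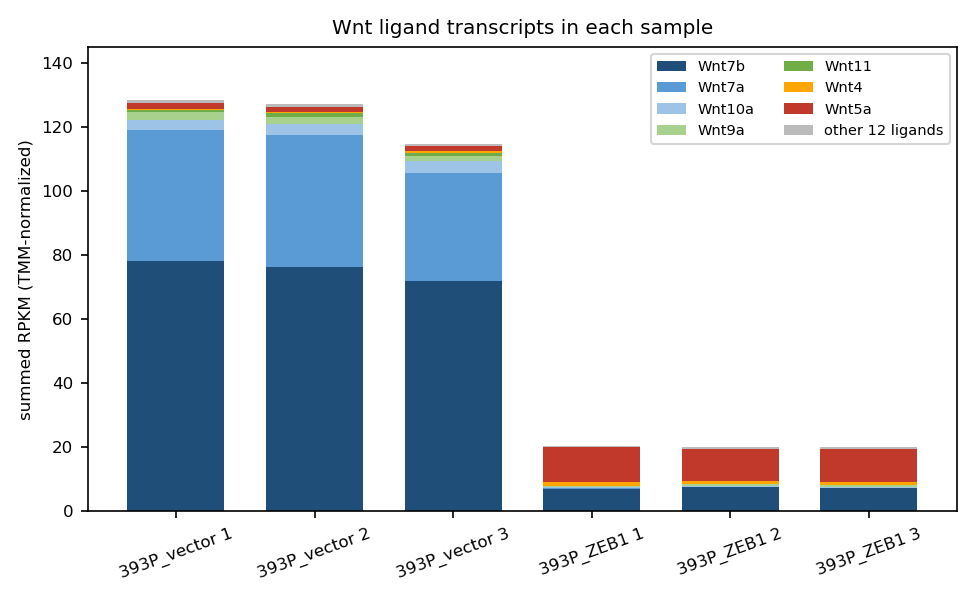
Summed level of the Wnt ligand transcripts (vertical axis, TMM-normalized RPKM) in each of the 6 samples, with bars stacked by ligand. Wnt7b and Wnt7a fill most of the vector bars, which reach 115 to 128, and Wnt5a and Wnt7b most of the ZEB1 bars, which reach 20 to 20.4.

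The remaining called ligands were minor parts of the summed level in both groups. Wnt4, a ligand of both pathway branches, was at 1.31, 1.7 and 1.75 CPM in 393P_vector and 3.76, 3.42 and 3.32 CPM in 393P_ZEB1 (log2 fold change 1.14, SE 0.19, adjusted p = 0.00225). Wnt10a, a ligand of the β-catenin branch, was at 6.88 ± 0.655 and 0.692 ± 0.146 CPM (SD, n = 3 each), a 9.93-fold decrease (adjusted p = 1.49e-05). Wnt11, a ligand that acts mostly without β-catenin, was at 2.12, 3.2 and 3.07 CPM in the vector samples and 0.187, 0.216 and 0.213 CPM in the ZEB1 samples. It fell 13.5-fold (adjusted p = 2.65e-05), so the ligands known for β-catenin-independent signaling did not move as one, with Wnt5a higher and Wnt11 lower. Wnt9a fell 3.81-fold (adjusted p = 0.000713). Wnt10b, named here after its values were seen, stayed below 1 CPM in every sample and had a log2 fold change of -3.03 (SE 0.41, adjusted p = 0.000903). The other 10 ligands, Wnt1, Wnt2, Wnt2b, Wnt3, Wnt3a, Wnt6, Wnt8a, Wnt8b, Wnt9b and Wnt16, had at most 14 counts in any sample.

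Porcn, on which secretion of all these ligands depends, was at 11.9, 12.6 and 19.0 CPM in the vector samples and 2.84, 3.35 and 3.08 CPM in the ZEB1 samples. The groups did not overlap and the decrease was 4.69-fold (log2 fold change -2.23, SE 0.22, adjusted p = 0.000163). The gene is on the X chromosome (8193850-8206525, minus strand). Wls, the carrier that takes lipidated Wnts to the cell surface, was at 111 ± 20.9 CPM (SD, n = 3) in 393P_vector and 115 ± 4.66 CPM (n = 3) in 393P_ZEB1 and did not pass the test (log2 fold change 0.06, adjusted p = 0.782).

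Frizzled receptors, the membrane-spanning receptors shared by both branches, moved less than the ligands. Of the 10 genes, 9 were tested, 4 were higher, 2 were lower and 3 were not called, with a median log2 fold change of 0.35. Shares over all tested genes were 18.3% higher and 19.3% lower. Fzd3, a frizzled of planar polarity signaling and axon guidance, showed the greatest difference. It was at 0.3, 0.323 and 0.445 CPM in the vector samples and 11.7, 9.81 and 11.4 CPM in the ZEB1 samples. These groups were 30.2-fold apart (log2 fold change 4.92, SE 0.21, adjusted p = 2.68e-06) at chr14:65192441-65262463 on the minus strand. Fzd6, its nearest relative among the frizzleds, was already well expressed, at 28.3, 25.9 and 35.1 CPM in 393P_vector, and reached 89.8, 92.3 and 89.6 CPM in 393P_ZEB1. That was a 3.04-fold increase (log2 fold change 1.60, SE 0.14, adjusted p = 7.14e-05).

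Fzd8, which pairs with LRP6 in β-catenin signaling, was at 4.53 ± 0.643 CPM (SD, n = 3) and 12.4 ± 1.12 CPM (n = 3) in the vector and ZEB1 groups (log2 fold change 1.45, SE 0.16, adjusted p = 0.000312). It lies on chromosome 18, whose tested genes had a median log2 fold change of 0.64, and the difference from that median was 0.81. Fzd4, the Norrin receptor, was 1.29-fold higher (adjusted p = 0.0431). In the opposite direction, Fzd1 was at 16.7, 19.3 and 24.2 CPM in 393P_vector and 8.06, 9.45 and 9.16 CPM in 393P_ZEB1 (log2 fold change -1.18, SE 0.17, adjusted p = 0.00121), and Fzd2, a WNT5A receptor, had a log2 fold change of -0.49 (SE 0.15, adjusted p = 0.0354). The small changes of Fzd4 and Fzd2 were among those that lost the call when a sample was left out.

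Per kilobase, the frizzled order in 393P_vector was Fzd5, Fzd2 and Fzd6, at 16.1 ± 1.55, 12.3 ± 1.95 and 7.2 ± 1.16 RPKM (SD, n = 3). In 393P_ZEB1 it was Fzd6, Fzd5 and Fzd2, at 21.9 ± 0.368, 13.4 ± 0.368 and 8.76 ± 1.03 RPKM (n = 3). Fzd6 thus moved from 14.4% ± 0.994 to 35.8% ± 0.961 of the summed frizzled level, which was 50 ± 7.17 RPKM in 393P_vector and 61.3 ± 1.81 RPKM in 393P_ZEB1. Fzd5 itself did not pass the test, at 106, 104 and 124 CPM in 393P_vector and 89.8, 94.3 and 94.1 CPM in 393P_ZEB1 (log2 fold change -0.26, adjusted p = 0.0857). Fzd3, despite its fold change, held 1.41% of the frizzled sum in 393P_ZEB1. Fzd7 and Fzd9 did not pass the test (adjusted p = 0.371 and 0.682), and Fzd10 had too few reads.

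The LRP co-receptors of the β-catenin branch were not called. Lrp5 was at 236, 237 and 145 CPM in the vector samples and 240.5, 253 and 236 CPM in the ZEB1 samples (log2 fold change 0.24, SE 0.19, adjusted p = 0.353), and without vector replicate 3, which was clearly lower than the rest, the log2 fold change was 0.04 (adjusted p = 0.679). Lrp6 was at 134 ± 9.11 and 121 ± 3.87 CPM (SD, n = 3 each; adjusted p = 0.277). Secreted antagonists, which trap Wnts or block LRP5/6, were scarce in both groups. Dkk2, an LRP5/6 ligand, was at 3.09, 2.6 and 2.48 CPM in the vector samples and 0.916, 0.522 and 0.901 CPM in the ZEB1 samples, a 3.48-fold decrease (adjusted p = 0.00123). Sfrp4, named here after its values were seen, was at 0.053, 0.136 and 0.277 CPM in 393P_vector and 0.654, 0.954 and 0.868 CPM in 393P_ZEB1 (log2 fold change 2.32, SE 0.47, adjusted p = 0.00653). Without vector replicate 3, the highest of its group, its log2 fold change was 3.09 (adjusted p = 0.000233). The other 7, Sfrp1, Sfrp2, Sfrp5, Dkk1, Dkk3, Dkk4 and Wif1, had at most 12 counts in any sample.

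Dishevelled proteins relay the signal from frizzled receptors in both branches. Dvl1 was at 49.4, 61.1 and 68.6 CPM in the vector samples and 31.1, 37.4 and 41.7 CPM in the ZEB1 samples (log2 fold change -0.70, SE 0.16, adjusted p = 0.0124). Dvl2 was at 45.3, 47.6 and 36.7 CPM and at 58.2, 64.4 and 60.5 CPM (log2 fold change 0.50, SE 0.13, adjusted p = 0.0183). The paralogs therefore changed in opposite directions and by small amounts, and both calls were lost when certain ZEB1 samples were left out, replicate 1 for Dvl1 (adjusted p = 0.0536) and replicate 2 or 3 for Dvl2. Exons of Dvl2 overlap the antisense gene Acadvl, which rose as well (log2 fold change 0.84, adjusted p = 0.00533). Dvl3 did not pass the test (log2 fold change -0.22, adjusted p = 0.21).

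Among the 5 planar polarity genes, the cadherin genes Celsr1 and Celsr2 fell and the VANGL genes did not pass the test. Celsr1, a core polarity component that joins neighboring epithelial cells, was at 169, 159 and 109.7 CPM in the vector samples and 29.3, 27.9 and 31.1 CPM in the ZEB1 samples. This was a 4.94-fold decrease (log2 fold change -2.31, SE 0.17, adjusted p = 3.95e-05). Celsr2 was at 21.6, 20.8 and 14.8 CPM and at 2.15, 1.94 and 2.21 CPM, 9.05-fold lower (log2 fold change -3.18, SE 0.19, adjusted p = 1.27e-05). Both decreases exceeded the spread of the samples, vector replicate 3 included. Of the 35 exons of Celsr2, 29, 28 and 27 held more than 10 reads in the vector samples and 4, 1 and 2 in the ZEB1 samples. Vangl1, which binds Prickle and acts opposite CELSR-frizzled complexes, was at 66.2 ± 6.33 and 58.7 ± 6.82 CPM (SD, n = 3 each; log2 fold change -0.17, adjusted p = 0.325). Vangl2 had a log2 fold change of 0.32 (adjusted p = 0.0721). Celsr3 was low in both groups, at 0.338 ± 0.0961 and 0.267 ± 0.0605 CPM (SD, n = 3 each; adjusted p = 0.478).

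In the β-catenin arm, Nkd2, an inhibitor that binds Dishevelled, had the greatest difference. It was at 4.66, 5.22 and 3.77 CPM in the vector samples and 0.0187, 0.09 and 0.213 CPM in the ZEB1 samples. The ZEB1 values ran from below to above the level of 3 counts, and the fitted difference was 40.4-fold (log2 fold change -5.34, SE 0.49, adjusted p = 0.000122). At such low counts the size rested on single samples, with a log2 fold change of -6.31 without ZEB1 replicate 3 and -4.87 without ZEB1 replicate 1, and the call held in both. Axin2, the target gene most used to read out β-catenin activity, had 10, 9 and 8 counts in 393P_vector and 6, 9 and 9 counts in 393P_ZEB1, and Nkd1, a further target, had 2, 7 and 10 against 5, 2 and 6 counts. Both were too low to test, so a difference was not detectable at this depth.

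Of the TCF/LEF factors, which bring β-catenin to DNA, Tcf7 and Tcf7l1 passed the test with small differences. Tcf7 was at 16.4, 15.0 and 19.0 CPM in the vector samples and 12.8, 11.6 and 12.2 CPM in the ZEB1 samples (log2 fold change -0.46, SE 0.13, adjusted p = 0.0301). Tcf7l1, mostly a repressor, had a log2 fold change of 0.47 (SE 0.15, adjusted p = 0.0433). Both calls were lost in several fits without 1 sample. Lef1 was low, at 0.336, 0.187 and 0.193 CPM and at 0.0374, 0.144 and 0.0819 CPM, and missed the threshold (log2 fold change -1.40, SE 0.51, adjusted p = 0.0644). Tcf7l2 (log2 fold change 0.32, adjusted p = 0.0736) and the scaffold Axin1 (183, 202 and 122 CPM against 127, 137 and 139.6 CPM, log2 fold change -0.33, adjusted p = 0.188) did so too. Without vector replicate 3, Lef1, Axin1 and Tcf7l2 passed the threshold. Their log2 fold changes in that fit were -1.54, -0.52 and 0.39, and their adjusted p-values 0.0425, 0.00033 and 0.00649.

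Other genes of the pathway were read from lists that exclude the 61 members. In the β-catenin cycle, 18 of 19 genes were tested, 4 were higher (Apc, Apc2, Gsk3b and Tle3) and 3 lower (Bcl9l, Csnk1e and Tle4), with a median log2 fold change of 0.11. This was 38.9% of those tested, a share near the 37.6% of all genes. Ctnnb1, which encodes β-catenin, was at 974 ± 116 and 1099 ± 41.8 CPM (SD, n = 3 each) and did not pass the test (adjusted p = 0.287). Of 11 common target genes 9 were tested, and 4 were lower (Lgr5, Rnf43, Sp5 and Znrf3) and 1 higher (Twist1). This was 55.6% of those tested, with a median of -0.25. Lgr5 and Sp5 were low, each at a mean of 0.287 CPM in the vector samples and at 0.0472 and 0.00546 CPM in the ZEB1 samples. Their ZEB1 means lay near or below the level of 3 counts. Mean levels in the vector and ZEB1 samples were 7.39 and 3.09 CPM for Rnf43 and 43.1 and 32.4 CPM for Znrf3. Twist1 was at 0.394 and 1.85 CPM. Rnf43 and Znrf3, the ubiquitin ligases that remove frizzleds from the surface, fell by 1.25 and 0.41 on the log2 scale (adjusted p = 0.00671 and 0.0141), while Myc (adjusted p = 0.411) and Ccnd1 (0.485) were not called.

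Among 18 genes of Wnt secretion and receptor turnover, which share Lgr5, Rnf43 and Znrf3 with the targets, 9 were tested. Of these 3 were higher (Apcdd1, Gpc4 and Lgr6) and 3 lower (the shared genes), 66.7% against 37.6% of all genes. Mean levels in the vector and ZEB1 samples were 108 and 193 CPM for Apcdd1 (adjusted p = 0.000867). For Lgr6 they were 211 and 365 CPM (adjusted p = 0.00137). Gpc4, a heparan sulfate proteoglycan of the cell surface that takes part in polarity signaling, rose from 0.351 ± 0.141 to 10.6 ± 1.15 CPM (SD, n = 3 each; log2 fold change 4.94, SE 0.28, adjusted p = 9.58e-06). Of the 39 genes of non-canonical and polarity signaling, 36 were tested, 8 were higher, 6 were lower and 22 were not called, with a median of 0.14. The share called was 38.9%, again near the 37.6% of all genes, so the count is no result about this list. Higher genes included Ankrd6, the Diversin gene, at a log2 fold change of 2.48 (adjusted p = 6.8e-05) and the atypical cadherin Fat4 at 1.54 (0.000496). Camk2b at 1.45 (0.00184), the calcium-responsive factor Nfatc1 at 1.07 (0.000201), Intu, Nlk, Rock1 and Wdpcp were higher as well. Lower genes were the polarity gene Prickle1 at -1.27 (0.000419), Nfatc4 at -2.83 (0.0024), Nfatc2 at -0.96 (0.0331), Daam1, Prkca and Rhou. Each of these lists held genes called in both directions.

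Because chromosome medians differed between the groups, each member was also read against its chromosome. The median log2 fold change of tested genes ranged from -0.43 on chromosome 17 to 0.64 on chromosome 18. All 10 members called higher and all 17 called lower kept their sign relative to the chromosome median. Ror2 remained 7.71 above the median of chromosome 13, whereas for Ptk7 on chromosome 17 a difference of -0.25 was left.

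**Figure D4:**
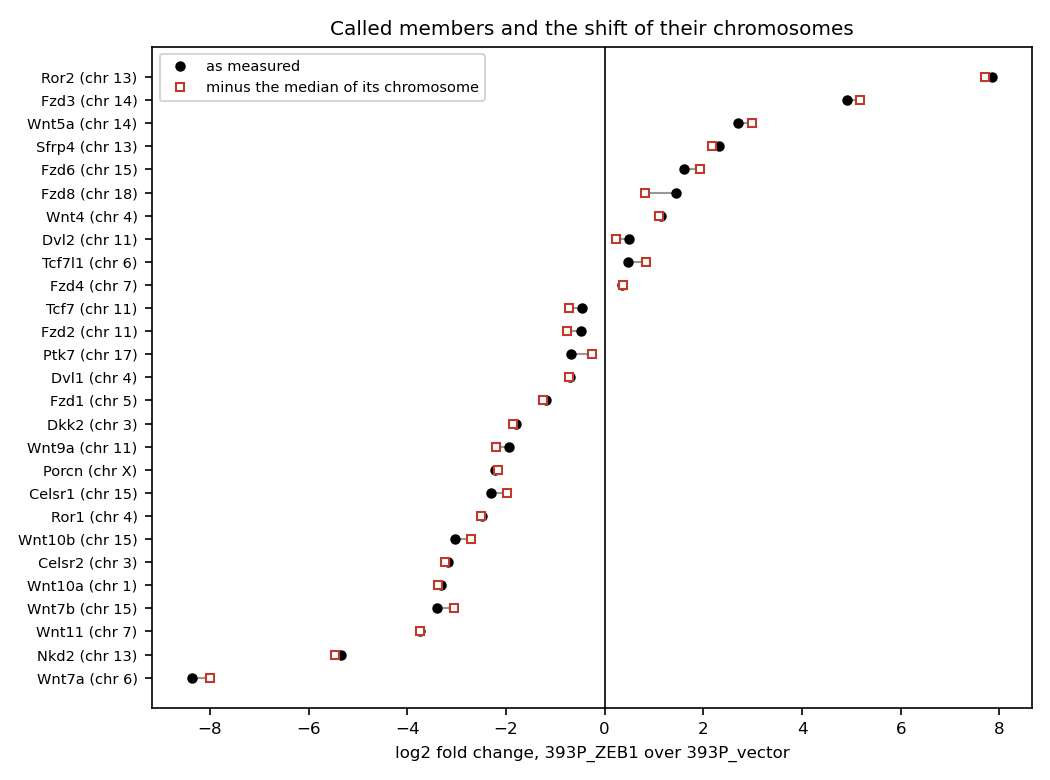
Log2 fold change (horizontal axis, 393P_ZEB1 over 393P_vector) of the 27 called members, as measured (filled circles) and after subtraction of the median of all tested genes on the same chromosome (open squares). Both marks of each gene lie on the same side of 0, and Ptk7 moves from -0.68 to -0.25.

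Marker lists of other cell types were low apart from Cd14 of the leukocyte list, at a mean of 17 CPM in 393P_vector and 58 CPM in 393P_ZEB1. The 5 leukocyte markers summed to 19.4 to 20.8 CPM in the vector samples and 58.1 to 61.1 CPM in the ZEB1 samples, with 1 of 4 tested genes called (Cd14, higher) and the defining Ptprc at 0.258 and 0.198 CPM on average. The 7 fibroblast markers summed to 2.4 to 3.27 CPM and 2.77 to 3.61 CPM, with 2 of 5 tested genes higher and 1 lower. Endothelial (4 genes) and muscle and pericyte (4 genes) markers summed to 2.26 to 2.46 and 1.57 to 2.05 CPM in 393P_vector. In 393P_ZEB1 they summed to 0.63 to 0.868 and 0.753 to 0.841 CPM. Kdr was called lower among 2 tested endothelial genes (log2 fold change -2.51). Cnn1 was called lower among 3 tested muscle and pericyte genes (-3.85). Over all tested genes 37.6% were called. The epithelial list summed to 4638 to 5300 CPM in 393P_vector and 2746 to 3042 CPM in 393P_ZEB1, and Cdh1 was at 162 ± 61.1 and 9.51 ± 0.718 CPM (SD, n = 3 each). The part of these lists in the results was not tested.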

How the data were processed

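The authors deposited, for each of the 6 samples, a table of read counts per RefSeq feature, with exon length and GRCm38 coordinates. The same tables hold RPKM deposited by the authors, which implied between 99.1% and 99.32% of the summed counts as the library total and was not used for tests. They also hold the authors' number of exons with over 10 reads. The aligner, the counting program and the use of strand are not given in the sources used here.

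Groups came from the labels, and no sample was left out. Counts were tested in R 4.3.3 with edgeR 4.0.16, by filterByExpr (minimum count 10, 13892 genes kept), TMM scaling, a robust quasi-likelihood fit of the group without a replicate block, and Benjamini-Hochberg adjustment with a threshold of 0.05. The common biological coefficient of variation was 0.184. CPM used TMM library sizes, and RPKM for comparing genes was that CPM per kilobase of exon. Alternatives used DESeq2 1.42.0, limma 3.58.1, other filters, the replicate block and the omission of each sample. Antisense exon overlap was read from GENCODE M21, and promoter windows from RefSeq (GRCm38.p6).

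Members and lists were chosen with earlier results of these data known, and the shorter promoter motif after its counts could be seen. Named were Ror1, Ror2, Ryk, Ptk7, Wnt5a, Wnt5b, Axin2, Lef1, Tcf7 and Nkd1, members called with a mean of at least 1 CPM in a group, and the member of each role with the highest RPKM. Other members are given by count, range or test result. Python 3.11.15, pandas 2.3.3, NumPy 2.4.6, SciPy 1.17.1 and matplotlib 3.10.9 were used.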

Additional observations from a re-analysis of the deposited data

How the results depend on the processing

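Of 77 alternative values of the counts of called genes and of Ror2, 70 kept their direction and stayed within 1.5 times the value in the report. Over all genes, 2539 were higher and 2679 lower. These counts became 1081 and 1118 in a test against a 1.5-fold change, 1584 and 1545 at an adjusted p below 0.01, and 3977 and 4094 with limma voom and sample weights, where vector replicate 3 had a weight of 0.111 and the others 0.726 to 3.02. Leaving out 1 sample gave 1861 to 3700 higher and 1784 to 3776 lower, the largest without vector replicate 3. The cause was not tested. Members called higher and lower were 7 and 13 against 1.5-fold and at 0.01, 13 and 21 with limma voom, 11 and 17 with the DESeq2 Wald test, 8 and 16 without a filter, and 7 to 11 and 13 to 19 with 1 sample left out. With at least 10 counts required in every sample they were 8 and 15. Ror2, Sfrp4, Nkd2, Wnt10b and the uncalled Lef1 were then removed by the filter and had no value.

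Replicate numbers are alike in both groups, but deviations of same-numbered samples correlated at 0.195, -0.126 and -0.0276 across genes, so the numbers were not read as pairs, and not every sample correlated best with its own number. With the replicate block, 2180 genes were higher and 2256 lower, 8 and 14 members were called, and Ror2 was at 7.84. Among the 32 named tested members, Wnt5b turned its sign, to -0.04 and -0.08 (range over the omission of 1 sample -0.08 to 0.49), and Axin1 turned from -0.33 to 0.10 relative to the median of chromosome 17. Neither was called in the report. With the replicate block the calls of Fzd2, Fzd4, Ptk7, Tcf7 and Tcf7l1 were lost (adjusted p = 0.0563 to 0.115). With limma voom Fzd5, Ryk, Lef1 and Axin1 were called as well. Of the 31 named tested members other than Ror2, 12 had the same outcome in every alternative. A moved value relative to the chromosome median counted as a change here. Depth limits the 20 untested members, for which no difference was detectable.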

Other observations

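Several of the Wnt genes lie side by side, and in 3 of the 4 close pairs only 1 of the genes had enough reads for a test. Wnt10a fell, while Wnt6, 6.7 kb away, had too few reads. Wnt9a fell, while Wnt3a, 16.2 kb away, had too few. Wnt10b fell, and Wnt1, 11.7 kb away, had too few. Neither Wnt9b nor Wnt3, 24.4 kb apart, was tested. No other feature of the tables lies between the genes of these pairs.

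Wnt7b and Celsr1 lie 317 kb apart on chromosome 15, and both fell. Of the 8 features between them all 8 were tested, 3 were lower (Pkdrej, Gtse1 and Trmu) and 0 higher in the edgeR fit, with a median log2 fold change of -0.45. The median of chromosome 15 was -0.33, and the log2 fold changes of Wnt7b and Celsr1 were -3.40 and -2.31. Over all tested genes 19.3% were lower. Whether their shared location had a part in both decreases was not tested.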
